A study of Mus musculus with 14 samples.

Results

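Dorsal root ganglia (DRG) hold the cell bodies of the sensory neurons whose axons run in peripheral nerves, together with satellite glia, Schwann cells, vessels and resident immune cells. The comparison described here set mature miRNA levels in injured DRG of CAST/Ei mice against those in injured DRG of C57BL/6 mice. It used the 3 CAST/Ei injured and the 3 C57BL/6 injured libraries, chosen by their titles, which are 6 of the 14 libraries of the series. C57BL/6 is a common laboratory strain, and CAST/Ei is an inbred strain derived from wild castaneus mice and known for strong regrowth of injured sensory axons. Both groups were male mice, 8 to 10 weeks old, in which forceps had crushed the left sciatic nerve for 30 s. No genetic change or drug is named for either group. Libraries of a group are described as biological replicates in the series' design, and p-values measure the spread between them. The other 8 libraries came from naive ganglia (5 C57BL/6 and 3 CAST/Ei) and served as a second, separate strain comparison. How long after the crush the ganglia were dissected, which ganglia were taken and how libraries were batched are points on which no source used here gives information.

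A miRNA is a small RNA that is cut from a hairpin precursor and pairs with messenger RNAs, mostly through its seed (bases 2 to 8), to lower their translation and stability. Both arms of a hairpin, 5p and 3p, can give a mature miRNA, and many miRNAs sit in clusters that share 1 primary transcript or in introns of host genes. In DRG, miRNAs that mark neurons, glia, muscle, blood or immune cells also report which cells gave the RNA, and after nerve injury miRNAs such as miR-21 and miR-132 are known to be raised.

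The mature sequences on which the results turn are shown 5′ to 3′, with the seed in capitals, and are credited to RefSeq (GRCm38.p6). RefSeq entries matched 485 of the 590 miRNAs tested and 69 of the 99 that differed. The first set holds miRNAs that were lower in CAST/Ei, from those near absent there to miR-511-3p and the erythrocyte pair miR-144-3p and miR-451a.
miR-341-3p: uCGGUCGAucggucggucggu
miR-1188-5p: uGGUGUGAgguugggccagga
miR-3060-3p: cCAUAGCAcagaagcacuccca
miR-7688-5p: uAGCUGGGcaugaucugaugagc
miR-8114: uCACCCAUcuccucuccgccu
miR-3061-5p: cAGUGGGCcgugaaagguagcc
miR-511-3p: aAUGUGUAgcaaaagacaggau
miR-144-3p: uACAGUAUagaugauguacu
miR-451a: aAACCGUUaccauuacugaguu
The next set holds miRNAs that were higher in CAST/Ei with abundant members of their seed families, to show how close the family members are.
miR-211-5p: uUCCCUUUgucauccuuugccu
miR-204-5p: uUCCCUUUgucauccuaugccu
miR-449a-5p: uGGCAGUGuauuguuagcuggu
miR-449c-5p: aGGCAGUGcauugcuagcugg
miR-34a-5p: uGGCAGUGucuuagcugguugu
miR-146a-5p: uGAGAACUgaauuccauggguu
miR-146b-5p: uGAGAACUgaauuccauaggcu
miR-547-3p: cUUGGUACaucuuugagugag
The last set holds let-7 family members, which share 1 seed and were lower in CAST/Ei, and the arms read from opposite strands of the miR-338 locus.
let-7a-5p: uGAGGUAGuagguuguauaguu
let-7f-5p: uGAGGUAGuagauuguauaguu
miR-98-5p: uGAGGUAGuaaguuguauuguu
miR-338-3p: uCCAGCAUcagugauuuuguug
miR-3065-5p: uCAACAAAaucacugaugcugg

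Of the 1123 mature miRNAs listed, 590 reached 5 CPM or more in at least 3 of the 6 libraries and were tested. CPM here is the deposited value, reads divided by a library size that the authors had scaled. Of the 533 not tested, 2 were at 0 in all 6 libraries. The libraries held 5401274 to 13629728 reads, and 3 reads, taken as the floor of detection, were worth 0.202 to 0.482 CPM in a library. Spearman correlations over miRNAs were 0.979 to 0.993 between libraries of 1 strain (6 pairs) and 0.952 to 0.972 between strains (9 pairs). Among the naive libraries, C57BL/6 4 and 5 stood apart, with 56.6% and 50.1% of their signal in the 10 most abundant miRNAs, against 37.7% to 45.9% in the other 12 libraries. Results that use naive libraries are therefore given with and without those 2.

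At an adjusted p under 0.05 (limma, Benjamini-Hochberg over 590 miRNAs), 99 miRNAs differed between the strains, 16.8% of those tested. In CAST/Ei 35 were higher (5.93%) and 64 lower (10.8%). For all 99 every CAST/Ei library lay on 1 side of every C57BL/6 library, which was true of 216 of the 590 (36.6%). The median difference over all 590, CAST/Ei minus C57BL/6, was −0.06 on the log2(CPM + 1) scale, and it was 0.05 when library totals were taken without the 3 most abundant miRNAs. On that scaling 41 were higher and 39 lower, so that 51.2% of the calls were higher instead of 35.4%, and the surplus of lower calls depends on the scaling. With edgeR on recovered reads 37 were higher and 45 lower, and with DESeq2 49 and 65. The number of calls also depended on the libraries. Leaving out a CAST/Ei library gave 46 (library 1), 38 (library 2) or 41 (library 3) calls, and leaving out a C57BL/6 library gave 84, 72 or 78.

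The calls that held were mostly the large ones. Without any 1 of the 6 libraries in turn, 32 miRNAs kept their call in every case, 11 higher and 21 lower, and edgeR and DESeq2 called all 32 as well. Of the 30 calls beyond 1 on the log2 scale, 23 were among the 32, and of the 69 smaller calls, 9. Fits that took their estimate of the spread from more libraries called fewer, 15 with all 14 libraries and 27 with the 12 that leave out C57BL/6 naive 4 and 5. Called differences were larger among scarce miRNAs. Their median size was 1.32 below 10 CPM, 0.88 from 10 to 100 CPM, 0.66 from 100 to 1000 CPM and 0.54 above, while the share called was 14.8%, 15.5%, 19.0% and 17.6% in these bands. The smallest called size was 0.89 below 10 CPM and 0.34 above 1000 CPM, so the threshold itself favours larger sizes among scarce calls. Sizes over all tested miRNAs were not compared between the bands.

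**Figure D1:**
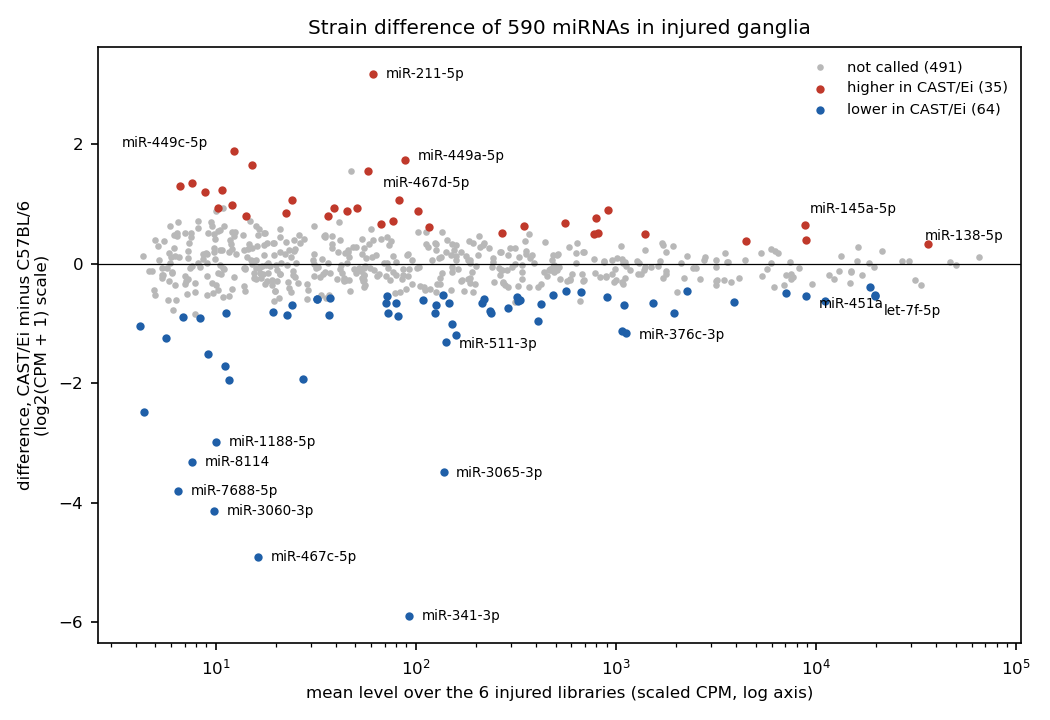
Difference between strains (CAST/Ei minus C57BL/6, log2(CPM + 1)) against the mean level over the 6 injured libraries (log axis), with 1 point for each of the 590 miRNAs tested. The 35 higher (red) and 64 lower (blue) miRNAs lie above and below 0. The lowest value, −5.90 for miR-341-3p, and the highest, 3.17 for miR-211-5p, belong to miRNAs with means between 10 and 100 CPM.

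The largest differences were miRNAs that C57BL/6 ganglia held and CAST/Ei ganglia almost lacked. These near-absent miRNAs reached 5 CPM only in C57BL/6 libraries, so they passed the filter through that strain alone. miR-341-3p, from the imprinted Dlk1-Dio3 region, which expresses its miRNAs from the maternal chromosome, stood at 157, 192 and 201 CPM in the C57BL/6 libraries and at 2.19, 2.73 and 1.41 CPM in the CAST/Ei libraries. The strains were far apart, and the difference was −5.90 ± 0.21 (SE, n = 3 and 3, adjusted p = 5.32e-08 with limma). It lies at chr12:109611556-109611576 (GRCm38, plus strand) in an intron of Rian, a noncoding RNA of that region. Its neighbour miR-1188-5p, whose hairpin lies 226 bases downstream in the same intron, stood at 12.9, 19.9 and 23.2 CPM against 2.01, 0.964 and 1.41 CPM (−2.98 ± 0.30, adjusted p = 1.66e-04). The other tested miRNAs of that group, miR-370-5p and miR-370-3p, were not called (differences of 0.11 ± 0.23 and 0.07 ± 0.19).

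Of the other near-absent miRNAs, miR-7688-5p (chr10:93433107-93433129, outside annotated genes) had 14.2, 13.1 and 11.7 CPM in C57BL/6 and no read in any CAST/Ei library. With CAST/Ei set to a floor of 3 reads over the group, the ratio was 139. The 95% interval for counting error began at 112 and had no upper limit. miR-467c-5p, a member of the large cluster in an intron of Sfmbt2, had 47.4, 20.02 and 30.6 CPM against 0, 0 and 0.202 CPM, or 1007 reads against 3. That gives a ratio of 349 with a 95% interval of 119 to 1697, which covers counting error only. miR-3060-3p (chr11:4139413-4139434, in an intron of Rnf215) had 16.6, 24.0 and 17.9 CPM against 0, 0 and 0.539 CPM, with 598 reads against 8. These 3 miRNAs showed no CAST/Ei library near the C57BL/6 range.

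miR-8114 (chr1:153899989-153900009), which overlaps an exon of Glul, the gene of glutamine synthetase, had 12.9, 18.1 and 12.8 CPM against 0.822, 0 and 1.01 CPM. miR-3061-5p (chr11:52126759-52126780), in an exon of Ppp2ca, a catalytic subunit of protein phosphatase 2A, had 7.27, 9.24 and 8.01 CPM against 1.004, 0.482 and 0.472 CPM. For these 5 miRNAs the differences ran from −4.90 to −2.48, with the highest adjusted p at 5.00e-04. A lower level of a miRNA in CAST/Ei and a loss of its reads in alignment, where the sequences of the strains differ, cannot be told apart in these files. This holds for every miRNA named as lower here.

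miR-3065-3p was 11.6-fold lower in CAST/Ei and still present, at 284, 235 and 243 CPM in C57BL/6 and 18.4, 26.2 and 21.0 CPM in CAST/Ei (−3.49 ± 0.17, adjusted p = 5.02e-07). The other arm of the same hairpin, miR-3065-5p, stood at 2235, 2312 and 3203 CPM and 2368, 2558 and 2338 CPM, and the strains overlapped (−0.08 ± 0.15, 95% interval −0.41 to 0.25). The miR-3065 hairpin (chr11:120014767-120014853, plus strand) is read from the strand opposite to the miR-338 hairpin (chr11:120014765-120014862, minus strand), with 87 bases in common, in an intron of Aatk. miR-338 is a miRNA of myelinating glia. miR-338-3p stood at 36075, 34069 and 42996 CPM against 28769, 30280.0 and 29186 CPM (−0.35 ± 0.11, adjusted p = 0.0531, not called), and miR-338-5p at 3022, 2531 and 2390.0 CPM against 1939.7, 1836 and 1949.5 CPM (−0.47 ± 0.12, adjusted p = 0.0282). miR-338-5p lost its call without C57BL/6 2 or CAST/Ei 1, 2 or 3 (adjusted p up to 0.112). Reads of the 2 hairpins are told apart only where the counting used strand, and no source used here states this.

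Smaller decreases included both arms of miR-676, from an intron of Eda on the X chromosome. miR-676-5p stood at 43.1, 47.8 and 39.7 CPM against 9.68, 8.67 and 14.5 CPM (−1.92 ± 0.22) and miR-676-3p at 88.2, 97.1 and 93.9 CPM against 52.0, 50.6 and 53.5 CPM (−0.83 ± 0.14). miR-187-3p had 256, 199.9 and 209 CPM against 99.98, 90.4 and 98.8 CPM (−1.19 ± 0.14), and its scarce 5p arm had a difference of −0.91, a call lost in 14 of 19 alternatives. miR-483-3p, from an intron of the imprinted growth factor gene Igf2, had 14.8, 16.3 and 11.2 CPM against 3.56, 4.02 and 5.26 CPM (−1.52 ± 0.25). miR-3101-5p had 13.5, 6.68 and 5.19 CPM against 4.02, 2.25 and 2.16 CPM and was the least certain of the 15 largest decreases, with its call lost in 14 of 19 alternatives (adjusted p up to 0.260). miR-3101-5p and miR-187-5p lost their calls without C57BL/6 1 or 2 or CAST/Ei 1, 2 or 3 (adjusted p up to 0.145).

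**Figure D2:**
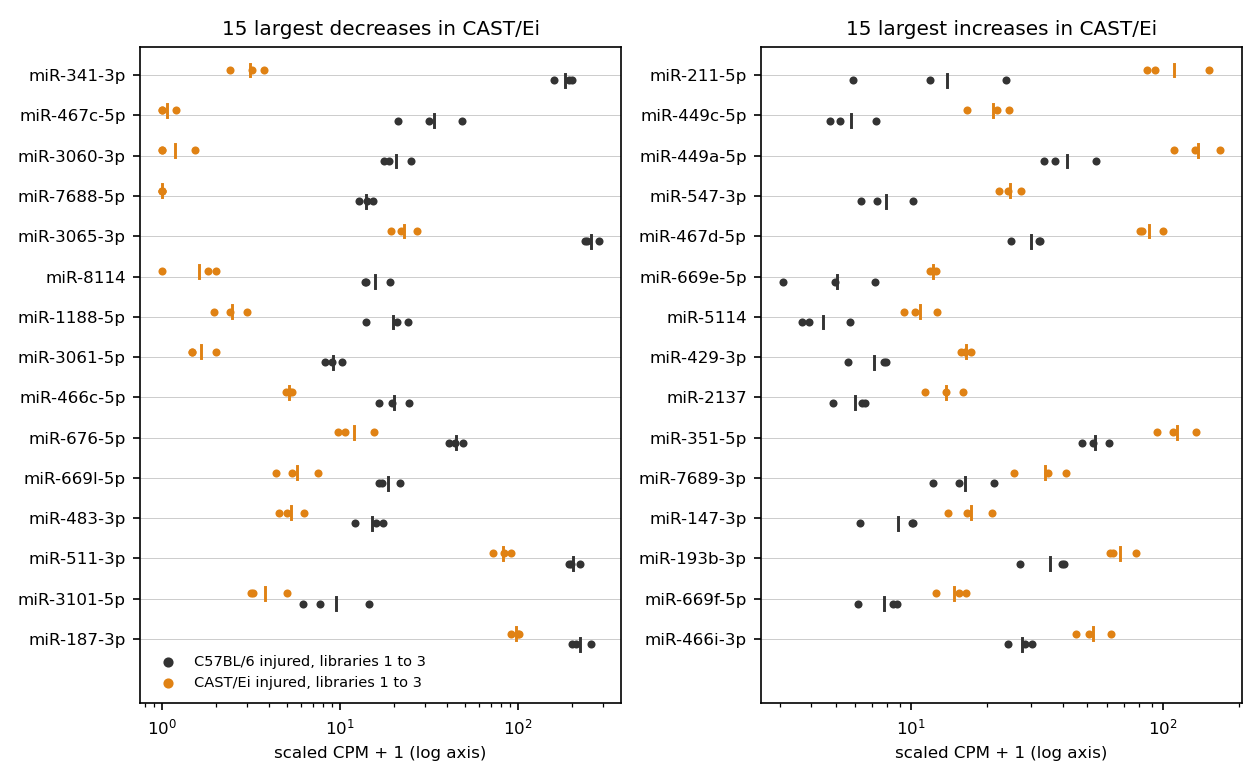
Scaled CPM + 1 (log axis) of the 15 largest decreases and the 15 largest increases in CAST/Ei injured ganglia, where points are libraries (3 for each strain) and short bars are the means plus 1. All 30 were chosen among called miRNAs whose groups did not overlap. The 3 CAST/Ei points (orange) and the 3 C57BL/6 points (dark) therefore lie apart by that choice. miR-7688-5p sits at 0 CPM in every CAST/Ei library.

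The largest increase was miR-211-5p, at 4.88, 10.9 and 22.8 CPM in C57BL/6 and 85.3, 92.2 and 151 CPM in CAST/Ei. The lowest CAST/Ei library was above the highest C57BL/6 library, with a difference of 3.17 ± 0.43 (adjusted p = 8.24e-04). miR-211 lies in an intron of Trpm1 (chr7:64205831-64205852), a gene of melanocytes and retinal cells, and is known from pigment cells. Its 3p arm, too scarce to test, had 0 reads in C57BL/6 and 28 in CAST/Ei. miR-211-5p differs from miR-204-5p by 1 substitution, A17U (positions from the 5′ end, miR-204-5p first). Reads between these 2 can be misassigned, and whether this differed between the strains was not tested. miR-204-5p was far more abundant, at 7459, 4194 and 6758 CPM against 5518, 6763 and 8291 CPM, and the strains overlapped (0.18 ± 0.22, 95% interval −0.30 to 0.67). miR-211-5p made up 0.0654%, 0.259% and 0.336% of the sum of the 2 in the C57BL/6 libraries, and 1.52%, 1.34% and 1.78% in the CAST/Ei libraries.

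The miR-449 cluster, which lies in an intron of Cdc20b and is known from ciliated epithelia, was higher in CAST/Ei. miR-449a-5p stood at 53.0, 36.3 and 32.8 CPM against 168, 109.7 and 132 CPM (1.73 ± 0.22, adjusted p = 5.00e-04), and miR-449c-5p at 6.27, 4.21 and 3.73 CPM against 21.0, 15.6 and 23.5 CPM (1.88 ± 0.26, adjusted p = 8.91e-04). The untested miR-449c-3p had 1 read in C57BL/6 and 38 in CAST/Ei. Both share their seed with miR-34a-5p, a miRNA induced by p53, which was far more abundant than either and was not called, at 13882, 11714 and 12668 CPM against 14846, 13045 and 13704 CPM (0.12 ± 0.11, 95% interval −0.12 to 0.36). Over the miR-34 and miR-449 list, 2 of 8 tested members were called, both higher, against 5.93% of all miRNAs, and the median was 0.00 (0.06 to 0.13 on other scalings) against −0.06 for all miRNAs. Among tested miRNAs matched to a RefSeq entry, 4 had this seed (miR-34a-5p, miR-34b-5p, miR-449a-5p and miR-449c-5p). Their summed level was 12946 CPM in C57BL/6 and 14128 CPM in CAST/Ei. That sum leaves out miR-34c-5p of the same list, which was tested and not called (−0.43).

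Other increases came from the X chromosome and from an epithelial family. miR-547-3p (chrX:67988383-67988403) of a cluster known from testis stood at 9.16, 5.34 and 6.28 CPM against 26.4, 21.2 and 23.1 CPM (1.66 ± 0.24, adjusted p = 0.00109). The other 8 listed members of that cluster did not reach the level tested. miR-429-3p of the epithelial miR-200 family had 6.77, 4.62 and 6.92 CPM against 15.3, 14.8 and 16.3 CPM (1.23 ± 0.23), and it was 1 of 7 tested epithelial miRNAs called, against 5.93% of all miRNAs called higher, with 5 or 6 of the 7 above 0 depending on the scaling and a median of 0.31. That list summed to 218 to 292 CPM in C57BL/6 and 274 to 341 CPM in CAST/Ei. The X-linked miR-322, miR-503 and miR-351 come from 1 cluster, and 3 of its 9 tested arms were called, all higher, against 5.93% of all miRNAs. They were miR-351-5p (46.5, 60.0 and 51.8 against 109, 93.5 and 135 CPM, 1.07 ± 0.18), miR-503-5p (303, 275 and 244 against 451, 409.8 and 416 CPM, 0.64 ± 0.13) and miR-322-5p (729, 619 and 597 against 922, 881 and 947 CPM, 0.50 ± 0.12). miR-503-5p lost its call without CAST/Ei 1 or 3 (adjusted p up to 0.0546). miR-322-5p lost its call without C57BL/6 2 or 3 or CAST/Ei 1, 2 or 3 (adjusted p up to 0.095).

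The remaining members of the 15 largest increases were scarce. miR-5114, in an exon of the fatty acid desaturase gene Scd2, had 2.69, 4.72 and 2.91 CPM against 11.7, 8.35 and 9.30 CPM (1.30 ± 0.28). miR-2137 had 5.58, 3.90 and 5.37 against 12.8, 15.1 and 10.4 CPM, miR-7689-3p 11.2, 14.5 and 20.4 against 34.0, 39.996 and 24.7 CPM, miR-147-3p 9.16, 5.24 and 9.10 against 19.995, 13.01 and 15.6 CPM and miR-193b-3p 26.0, 39.3 and 38.7 against 60.5, 77.4 and 62.3 CPM. Their differences lay between 0.94 and 1.21. Each of these 5 calls was lost in some alternatives, from 3 of 19 for miR-2137 to 7 of 19 for miR-147-3p, with adjusted p-values up to 0.821. In every one of these alternatives the direction stayed. miR-5114 lost its call without CAST/Ei 1 or 3 (adjusted p up to 0.0632). miR-2137 and miR-193b-3p lost their calls without CAST/Ei 2 (adjusted p up to 0.0589). miR-7689-3p lost its call without C57BL/6 2 or CAST/Ei 1 or 2 (adjusted p up to 0.0781). miR-147-3p lost its call without C57BL/6 2 or CAST/Ei 1, 2 or 3 (adjusted p up to 0.126).

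Of 185 hairpins with both arms tested, 44 had at least 1 arm called and 8 had both, and in all 8 the arms differed in the same direction. Across the 185 hairpins, which are not independent replicates, the differences of the arms had r = 0.469 and rho = 0.590, and 138 pairs had the same sign. The hairpins with both arms called were miR-144, miR-145a, miR-187, miR-376c, miR-378a, miR-669a, miR-676 and miR-872. In 6 hairpins the arms lay more than 1 apart. miR-3065 was the most extreme of these, and miR-676 was lower in both arms. The others were miR-300 (5p −0.68, 3p 0.35), miR-466c (5p −1.94, 3p −0.36), miR-467d (5p 1.56, 3p −0.24) and miR-669o (5p 0.59, 3p −0.83). The last 3 belong to the Sfmbt2 cluster.

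**Figure D3:**
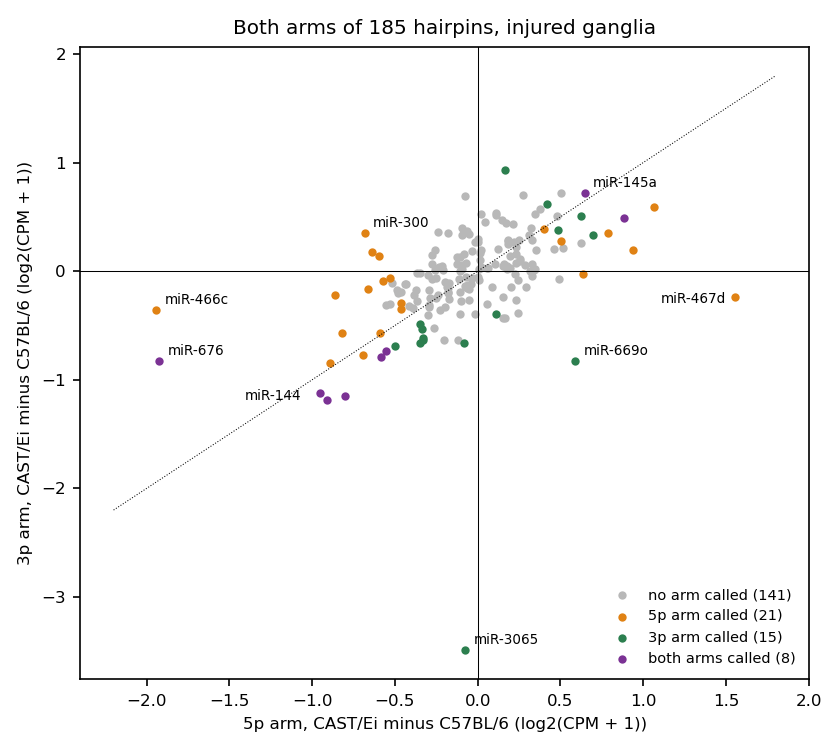
Strain difference (CAST/Ei minus C57BL/6, log2(CPM + 1)) of the 3p arm against that of the 5p arm, with 1 point for each of the 185 hairpins with both arms tested, colours for which arm was called and equal differences on the dotted line. Most points lie near the line, the 8 hairpins with both arms called lie in the lower left and upper right, and miR-3065 lies far below it.

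The Sfmbt2 list, the rodent repeat-derived miR-297, miR-466, miR-467 and miR-669 families, differed in both directions. Of 43 tested members 5 were higher and 8 lower, against 5.93% and 10.8% of all miRNAs, and the median was −0.05 (0.00 to 0.05 on other scalings). miR-467d-5p was higher, at 31.3, 23.9 and 31.4 CPM against 81.3, 80.0 and 98.8 CPM (1.56 ± 0.17, adjusted p = 2.53e-04). miR-466c-5p was lower, at 18.5, 15.5 and 23.4 CPM against 4.20, 4.34 and 3.98 CPM (−1.94 ± 0.23), as was miR-669l-5p, at 20.7, 15.5 and 16.3 CPM against 3.38, 4.34 and 6.54 CPM (−1.71 ± 0.27). The most abundant member, miR-669o-3p, had 382, 266 and 269.8 CPM against 171, 168 and 169 CPM (−0.83 ± 0.16). miR-669e-5p (1.35), miR-669f-5p (0.94) and miR-466i-3p (0.93) were higher. miR-669e-5p lost its call without CAST/Ei 1, 2 or 3 (adjusted p up to 0.0689). miR-669f-5p lost its call without C57BL/6 2 or CAST/Ei 1, 2 or 3 (adjusted p up to 0.1). The list was matched on names, and RefSeq places miR-466i-3p outside the cluster, in an intron of Cdk13. Members of these families are near-identical copies, reads can be split among them, and single values are uncertain. miR-669a-3p, named after its values were seen, had 366, 259.8 and 268 CPM against 171, 174 and 166 CPM, almost the values of miR-669o-3p.

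The Dlk1-Dio3 cluster is transcribed in neurons, and 10 of its 89 tested members were lower and 2 higher in CAST/Ei, with a median of −0.05 (0.00 to 0.06 on other scalings). Over all miRNAs 10.8% were lower and 5.93% higher, so the share of lower members was near the background. Besides miR-341-3p and miR-1188-5p, miR-376c-3p was the largest decrease, at 1609.6, 1606 and 1445 CPM against 725, 656 and 711 CPM (−1.15 ± 0.12, adjusted p = 1.61e-04). miR-544-3p had 94.98, 110.0 and 114 CPM against 54.4, 54.6 and 63.8 CPM (−0.87 ± 0.15). The most abundant member, miR-379-5p, overlapped between strains at 2527, 2325 and 2564 CPM and 2402, 2298 and 2387 CPM. The 2 higher members, named after their values were seen, were miR-3072-3p (0.80) and miR-540-3p (0.62). miR-3072-3p lost its call without CAST/Ei 1, 2 or 3 (adjusted p up to 0.0834). miR-540-3p lost its call without C57BL/6 1 or 3 or CAST/Ei 1, 2 or 3 (adjusted p up to 0.109). By position, the proximal group of 9 hairpins had 1 of 17 tested arms called, the group of miR-341, miR-1188 and miR-370 had 2 of 4, and the distal group of 35 hairpins had 8 of 58, against 16.8% of all miRNAs. These position groups hold only arms with a RefSeq position, and they leave out miR-376c-3p. The summed level of the list was 33622 to 39471 CPM in C57BL/6 and 32206 to 34927 CPM in CAST/Ei, so the ranges overlapped.

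The let-7 family restrains growth genes and rises in differentiated cells. All 20 tested members of the let-7 list were below 0, with a median of −0.31. let-7k, which was tested and is not on that list, had a difference of 0.16 and was not called. Over all 590 miRNAs, 322 were below 0. The 20 include both arms of several hairpins and are not independent. On 5 other scalings 16 to 17 of the 20 were below 0, with medians of −0.26 to −0.20. Of the 20, 4 were called lower and 0 higher, against 10.8% lower and 5.93% higher over all miRNAs. let-7f-5p had 28995, 20160.0 and 21447 CPM in C57BL/6 and 16372, 15035 and 16335 CPM in CAST/Ei (−0.55 ± 0.14, adjusted p = 0.0261). let-7a-5p had 28643, 20357 and 21060.0 CPM against 16695, 14817 and 16553 CPM (−0.53 ± 0.14, adjusted p = 0.0282). In both, C57BL/6 library 1 was well above libraries 2 and 3. miR-98-5p (−0.47 ± 0.13) and let-7f-1-3p (−0.67 ± 0.18) were the other 2. let-7a-5p and let-7f-5p differ by 1 substitution, G12A (let-7a-5p first), and reads between them can be misassigned. The summed level of the 11 tested miRNAs with the let-7 seed was 93321 to 125240 CPM in C57BL/6 and 74781 to 81814 CPM in CAST/Ei, and the ranges did not overlap. let-7f-5p and let-7a-5p lost their calls without CAST/Ei 1, 2 or 3 (adjusted p up to 0.111). miR-98-5p lost its call without C57BL/6 1 or 3 or CAST/Ei 1, 2 or 3 (adjusted p up to 0.141). let-7f-1-3p lost its call whichever 1 library was left out (adjusted p up to 0.122). The direction stayed in every alternative run.

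Markers of blood and vessel cells held several calls. In these bulk samples of dissociated DRG, fewer cells of a type and less RNA per cell cannot be told apart. Of 5 tested erythrocyte miRNAs 3 were lower in CAST/Ei, against 10.8% of all miRNAs, and all 5 were below 0 on each scaling, with a median of −0.54. miR-144-3p had 1703, 1221 and 1495 CPM against 771, 710.5 and 546 CPM (−1.12 ± 0.17, adjusted p = 0.0016), miR-144-5p 637, 522 and 449.6 CPM against 381, 235 and 229 CPM, and miR-451a, from the same precursor transcript and made without Dicer, 12138, 9332 and 10306 CPM against 6421, 8140.3 and 7259 CPM (−0.54 ± 0.13). miR-144-5p lost its call without CAST/Ei 2 or 3 (adjusted p up to 0.0689). miR-451a lost its call without CAST/Ei 1 or 3 (adjusted p up to 0.0894). The list summed to 11216 to 14588 CPM in C57BL/6 and 7680 to 9173 CPM in CAST/Ei.

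Of the 4 tested arms of the mural cell miRNAs miR-143 and miR-145, which mark smooth muscle and pericytes, 3 were higher, against 5.93% of all miRNAs, and all 4 were above 0 on each scaling, with a median of 0.57. miR-145a-5p had 5068, 7669 and 8260.1 CPM against 10356, 11209 and 10626 CPM (0.65 ± 0.17, adjusted p = 0.0282), miR-145a-3p 51.7, 59.2 and 64.3 CPM against 93.7, 99.3 and 96.2 CPM and miR-143-3p 3929, 3639 and 4059.8 CPM against 4753, 5189 and 5173 CPM. The list summed to 9059 to 12395 CPM in C57BL/6 and 15216 to 16516 CPM in CAST/Ei. miR-145a-5p lost its call without CAST/Ei 1, 2 or 3 (adjusted p up to 0.0919). miR-143-3p lost its call without C57BL/6 2 or CAST/Ei 1, 2 or 3 (adjusted p up to 0.141). miR-145a-3p kept its call whichever 1 library was left out. The 4 tested endothelial miR-126 arms were not called, and miR-126a-3p overlapped between strains (15884, 15082 and 16389 CPM against 15821, 14815 and 18197 CPM). Of 6 fibroblast arms (miR-199 and miR-214) 5 or 6 were below 0 depending on the scaling and 1 was called lower, against 10.8% of all miRNAs, miR-214-5p at −0.57 ± 0.17. miR-214-5p lost its call whichever 1 library was left out (adjusted p up to 0.159). That list summed to 4382 to 5015 CPM against 3806 to 3964 CPM.

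The most abundant miRNA, the neuronal miR-138-5p, had 61180.0, 66747 and 59722 CPM against 69789, 65011 and 68299 CPM (0.12 ± 0.09). Of 21 tested neuronal miRNAs 0 were higher and 3 lower, with a median of 0.06, against 5.93% higher and 10.8% lower over all miRNAs, so the share of lower calls was near the background. They were miR-124-3p (24067, 19418 and 20277 against 15864, 15061 and 17344 CPM, −0.40 ± 0.11), miR-153-3p (−0.54 ± 0.16) and miR-7b-5p (−0.61 ± 0.16). miR-124-3p and miR-153-3p lost their calls without C57BL/6 1 or 3 or CAST/Ei 1, 2 or 3 (adjusted p up to 0.162). miR-7b-5p lost its call without C57BL/6 2 or 3 or CAST/Ei 2 or 3 (adjusted p up to 0.112). The list summed to 99752 to 103180 CPM in C57BL/6 and 98325 to 105510 CPM in CAST/Ei. The miR-183 cluster of sensory neurons, with 6 tested arms, had no call, and 5 or 6 of its arms were below 0 depending on the scaling. miR-183-5p stood at 8264, 8213.5 and 8909.7 CPM and 7964, 7308 and 8945 CPM, with a 95% interval of −0.32 to 0.18 for the difference. The myelinating glia list had 1 of 4 called lower (miR-338-5p), against 10.8% of all miRNAs, a median of −0.27 and a summed level of 36621 to 45414 CPM against 30736 to 32143 CPM. Neuronal and glial markers of the labelled tissue were thus abundant in both strains. Skeletal muscle miR-1a-3p was also present, at 8787, 7844 and 8156 CPM against 5989, 6233 and 5507 CPM (−0.48 ± 0.11). miR-1a-3p lost its call without CAST/Ei 1 or 3 (adjusted p up to 0.067). It was the 1 member called of 7 tested on the muscle list, against 10.8% lower over all miRNAs. Of the 7, 4 were above 0, up to 0.87 for miR-499-5p, which was not called, and the median was 0.05. The list summed to 9024 to 9725 CPM against 6483 to 7533 CPM, and miR-1a-3p made up most of that sum. The liver marker miR-122-5p stood at 11.6 to 37.7 CPM against 14.3 to 18.3 CPM. For none of the cell type lists was its part in the other results tested, and no list had a member at 0 in all 6 libraries.

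Of 8 tested leukocyte miRNAs 2 were higher, 2 lower and 4 not called, against 5.93% higher and 10.8% lower over all miRNAs, and the median was −0.09 (−0.03 to 0.02 on other scalings). miR-511-3p, which lies in an intron of the macrophage mannose receptor gene Mrc1 (chr2:14261051-14261072), was lower, at 221, 196 and 191 CPM against 90.4, 71.5 and 82.5 CPM (−1.31 ± 0.15, adjusted p = 2.53e-04). The lymphocyte miRNA miR-150-5p was lower, at 315, 149 and 153 CPM against 123, 81.1 and 86.3 CPM (−1.01 ± 0.28). The NF-kB induced miR-146a-5p was higher, at 445, 640.4 and 697 CPM against 899, 1068 and 1004 CPM (0.76 ± 0.17, adjusted p = 0.017), as was miR-155-5p, a miRNA of activated immune cells, at 65.7, 43.4 and 47.5 CPM against 78.0, 70.4 and 99.52 CPM (0.66 ± 0.20). miR-146b-5p, named after its values were seen, shares the seed of miR-146a-5p and had 665, 672 and 585 CPM against 1180.0, 1178 and 1205 CPM (0.89 ± 0.12, adjusted p = 6.28e-04). The 2 differ by G18A and U21C (miR-146a-5p first), and their sum was 1.76-fold higher in CAST/Ei. The abundant myeloid miR-223-3p overlapped between strains, at 4609, 3368 and 2686 CPM against 2608, 3135 and 2915 CPM. The leukocyte list summed to 6368 to 8002 CPM against 5735 to 6905 CPM. miR-150-5p and miR-146a-5p lost their calls without CAST/Ei 2 or 3 (adjusted p up to 0.117). miR-155-5p lost its call without C57BL/6 2 or 3 or CAST/Ei 1, 2 or 3 (adjusted p up to 0.181). miR-511-3p kept its call in 20 of 20 alternatives.

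All 14 tested miRNAs of a list known to be raised after nerve injury were above 0 in CAST/Ei relative to C57BL/6, with a median of 0.40. Over all 590 miRNAs, 268 were above 0. The 14 include both arms of several hairpins and are not independent. The list was also chosen with earlier results of these data known. The test of whether strain differences differ between injured and naive ganglia, given below, had 0 calls of 590. On the 5 other scalings all 14 stayed above 0, with medians of 0.45 to 0.51. The list overlaps the leukocyte list in miR-146a and miR-155. Of the 14, 3 were called, all higher, against 5.93% of all miRNAs: miR-146a-5p, miR-155-5p and miR-221-3p (625, 694 and 706 CPM against 1006, 926 and 942 CPM, 0.51 ± 0.12, adjusted p = 0.0178). miR-221-3p lost its call without CAST/Ei 1, 2 or 3 (adjusted p up to 0.0733). miR-21a-5p, its most abundant member and a miRNA that favours axon growth, overlapped between the strains at 19696, 16765 and 18569 CPM and 18524, 17664 and 19515 CPM (0.02 ± 0.10, 95% interval −0.21 to 0.25). miR-132-3p, a CREB-induced neuronal miRNA, had 64.9, 60.9 and 56.5 CPM against 77.2, 77.9 and 95.5 CPM (0.45 ± 0.15, adjusted p = 0.0773). It did not overlap between strains and missed the threshold, which it passed in 6 of 20 alternatives.

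**Figure D4:**
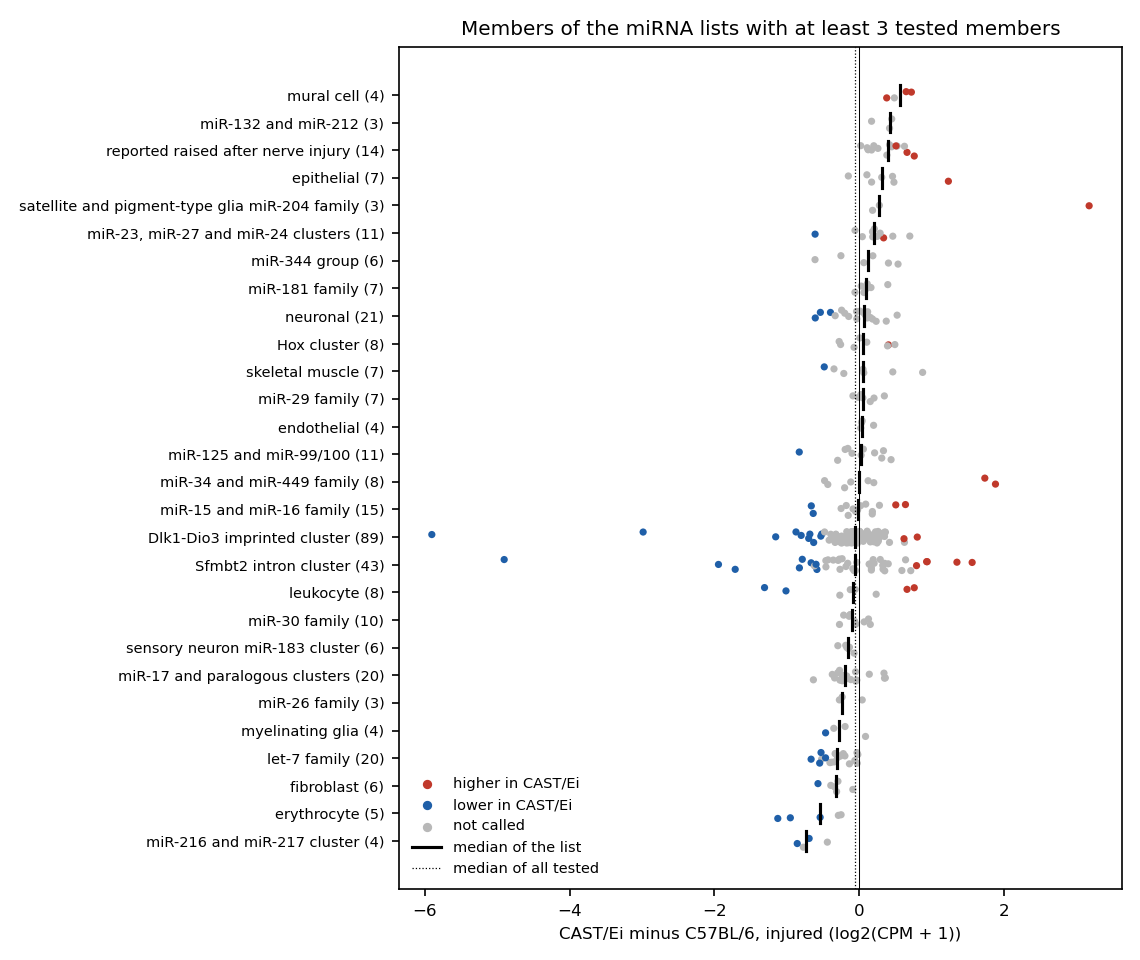
Strain difference (CAST/Ei minus C57BL/6, log2(CPM + 1)) of every tested member of the lists with at least 3 tested members, with lists ordered by their median (black bar) and the median of all 590 miRNAs dotted. Mural cell miRNAs sit highest with a median of 0.57, erythrocyte miRNAs low with −0.54, and single members such as miR-341-3p stand far from the rest of their list.

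Counts in the other families are set against 5.93% higher and 10.8% lower over all 590 miRNAs. In the miR-216 and miR-217 cluster 2 of 4 tested arms were lower (miR-216b-5p at 37.5, 59.6 and 47.6 CPM against 26.8, 22.3 and 28.4 CPM, −0.86 ± 0.20, and miR-217-5p, −0.69 ± 0.20), and the median was −0.73. miR-216b-5p and miR-217-5p lost their calls without C57BL/6 2 or 3 or CAST/Ei 1, 2 or 3 (adjusted p up to 0.126). In the miR-23, miR-27 and miR-24 clusters, with 11 tested arms, miR-23b-3p was higher (32390.0, 32105 and 31861 against 39961, 38620.0 and 43147 CPM, 0.34 ± 0.09) and miR-24-2-5p lower (−0.61 ± 0.14), with 9 or 10 of 11 members above 0 depending on the scaling and a median of 0.21. In the miR-15 and miR-16 family, with 15 tested arms, 2 were higher (miR-322-5p and miR-503-5p) and 2 lower, miR-195a-5p (5876, 4351 and 4070.2 against 3036, 3028 and 3015 CPM, −0.64 ± 0.14) and miR-497-3p (−0.66 ± 0.17). The Hox cluster miRNA miR-10b-5p was higher (7279, 7946 and 7911 against 10238, 9245 and 11168 CPM, 0.40 ± 0.11), and the other 7 tested Hox arms were not called. Of 11 tested miR-125 and miR-99 arms miR-125b-2-3p was lower (−0.83 ± 0.19), whereas the abundant miR-125b-5p overlapped (43400.0, 52885 and 42381 against 47677, 41370.0 and 52004 CPM). miR-23b-3p and miR-10b-5p lost their calls without C57BL/6 2 or 3 or CAST/Ei 1, 2 or 3 (adjusted p up to 0.126). miR-24-2-5p lost its call without CAST/Ei 1 or 2 (adjusted p up to 0.0806). miR-195a-5p lost its call without CAST/Ei 1, 2 or 3 (adjusted p up to 0.064). miR-497-3p lost its call without CAST/Ei 2 or 3 (adjusted p up to 0.0986). miR-125b-2-3p lost its call without C57BL/6 2 or 3 or CAST/Ei 2 or 3 (adjusted p up to 0.0652).

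Of the 10 most abundant miRNAs only miR-23b-3p and let-7f-5p were called. Of the others, miR-29b-3p had 52766, 47156 and 50263 CPM against 53898, 50313 and 44782 CPM, miR-26a-5p 32935, 32932 and 37002 CPM against 26925, 28193 and 29861 CPM and miR-24-3p 27616, 26933 and 25002 CPM against 27566, 26141 and 28171 CPM, with 95% intervals of −0.24 to 0.22, −0.49 to −0.06 and −0.17 to 0.25 for the differences. The adjusted p of miR-26a-5p was 0.0906. No member was called in the miR-17 (20 tested), miR-29 (7), miR-30 (10), miR-181 (7), miR-26 (3), miR-344 (6) and miR-132 (3) lists, against 16.8% of all miRNAs.

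Outside these lists, miR-335-5p and miR-101a-3p, named after their values were seen, were also lower. miR-335-5p, from an intron of the imprinted gene Mest, had 2407, 2489 and 2603 CPM against 1399, 1322 and 1526 CPM (−0.82 ± 0.11, adjusted p = 8.24e-04). miR-101a-3p had 16389, 10634 and 13424 CPM against 8743, 8206 and 9051 CPM (−0.62 ± 0.15, adjusted p = 0.0216). miR-335-5p kept its call whichever 1 library was left out. miR-101a-3p lost its call without C57BL/6 3 or CAST/Ei 1, 2 or 3 (adjusted p up to 0.0774).

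The naive libraries gave the strain difference in other animals. No library is shared between the 2 comparisons. In naive ganglia 12 of the 590 miRNAs were called (2.03%, limma), and without C57BL/6 naive 4 and 5 there were 21 (3.56%). All 12 were among the 99 injured calls with the same sign, which is 12.1% of the 99 and 100% of the 12. Without the 2 libraries 16 were shared, 16.2% of the 99 and 76.2% of the 21. Of the 99 injured calls 76 had the same sign in naive ganglia (88 without the 2 libraries), against 58.0% (63.4%) of all 590. For the 30 calls beyond 1 on the log2 scale it was 26 (28), and 12 (16) of them were called in naive ganglia too. Across the 590 miRNAs the 2 differences had r = 0.572 and rho = 0.303, and 0.697 and 0.470 without the 2 libraries.

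The near-absent miRNAs were near absent in naive CAST/Ei ganglia as well. miR-341-3p had 172, 216, 83.6, 32.5 and 23.3 CPM in C57BL/6 naive libraries 1 to 5 and 1.23, 2.45 and 1.20 CPM in the CAST/Ei naive libraries. miR-7688-5p had 11.5, 7.78, 7.35, 23.9 and 9.03 CPM against 0 in all 3, and miR-1188-5p 5.48, 8.42, 6.33, 8.499 and 11.7 CPM against 0 in all 3. miR-3065-3p had 215, 233, 183, 289 and 357 CPM against 25.2, 23.4 and 56.9 CPM. Among the increases, miR-211-5p had 10.7, 16.5, 18.0, 32.4 and 13.2 CPM against 176, 127 and 308 CPM and miR-547-3p 8.49, 7.05, 10.4, 3.10 and 7.15 CPM against 43.8, 46.3 and 54.0 CPM. In all of these the naive strains did not overlap. The 12 naive calls were miR-341-3p, miR-467c-5p, miR-3060-3p, miR-7688-5p, miR-3065-3p, miR-8114, miR-1188-5p, miR-3061-5p and miR-676-5p, all lower, and miR-211-5p, miR-547-3p and miR-669e-5p, all higher. miR-449a-5p, miR-429-3p, miR-467d-5p and miR-483-3p were added without C57BL/6 naive 4 and 5.

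**Figure D5:**
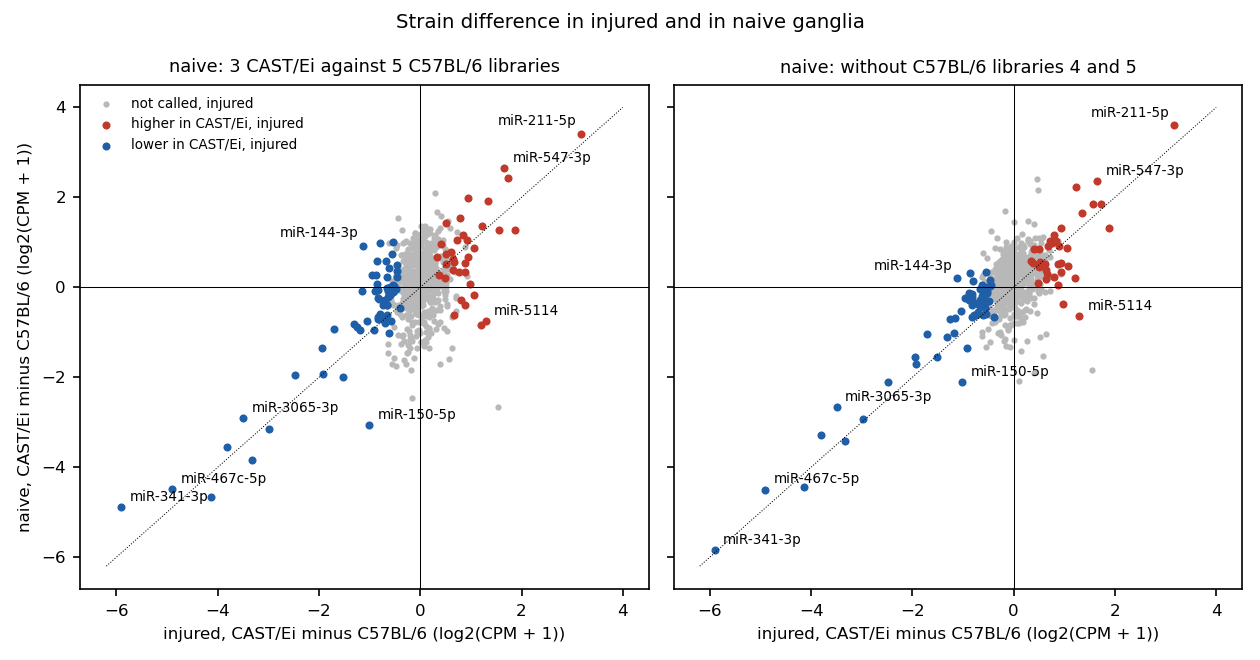
Strain difference (CAST/Ei minus C57BL/6, log2(CPM + 1)) in naive ganglia against that in injured ganglia for 590 miRNAs, with all 8 naive libraries (left) and without C57BL/6 naive 4 and 5 (right), and equal differences on the dotted line. Of the 30 calls beyond 1 in injured ganglia, 26 (left) and 28 (right) have the same sign in naive ganglia, while miR-144-3p, at −1.12 injured and 0.93 naive (left), lies far from the line.

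No difference between the injured and naive strain comparisons passed the test. The strain-by-injury interaction had 0 calls of 590 (0.0%, limma over 14 libraries), with 48 at an unadjusted p under 0.05 and a lowest adjusted p of 0.514. Leaving out 1 library gave 0 calls each time and 26 (without C57BL/6 injured 3) to 106 (without C57BL/6 naive 3) at an unadjusted p under 0.05. Without C57BL/6 naive 4 and 5 it had 0 calls, 54 unadjusted and a lowest adjusted p of 0.343. The lowest p belonged to miR-5114, which was higher in injured CAST/Ei and had 3.56, 2.27, 4.81, 6.89 and 2.63 CPM against 1.38, 1.11 and 3.61 CPM in naive ganglia. Its interaction was 2.04 (95% interval 0.94 to 3.14). miR-709, at 2.09 (95% interval 0.74 to 3.45), and miR-1195, at 2.17 (95% interval 0.75 to 3.59), were next, and neither was called in injured ganglia. miR-144-3p had a naive difference of 0.93 (0.20 without the 2 libraries) and an interaction of −2.05 (95% interval −3.57 to −0.54). let-7f-5p had a naive difference of 0.00 and an interaction of −0.54 (95% interval −1.24 to 0.15), and miR-376c-3p of −0.07 and −1.08 (95% interval −2.30 to 0.14). For miR-145a-5p the naive difference of 0.64 was close in size to the injured one, with an interaction of 0.01 (95% interval −0.97 to 0.98). miR-146a-5p had naive values of 315, 364, 842, 969 and 1954 CPM against 619, 1010.1 and 1199.8 CPM, and the strains overlapped, with C57BL/6 naive 5 the highest.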

How the data were processed

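Small RNA of dissociated DRG was extracted with a miRVana kit and sequenced from Ion Total RNA-Seq libraries, per the labels' protocols. Reads were aligned with Bowtie2, per the submitters' processing notes; no version, genome build or miRNA release is given in the sources used here. The authors deposited a normalised signal for 1123 mature miRNAs in each library, reads over a scaled library size, called CPM in the text. Values were whole multiples of 1 read in 100% of cases (tolerance 1e-06 of a read). For C57BL/6 injured library 1 the recovery of whole reads is not claimed. Its recovered reads still entered the read sums and ratios, edgeR and DESeq2. A further edgeR run left this library out. The scaling equalled edgeR's TMM on the recovered reads to within 9e-06. The design had assumed plain CPM, and the same test was kept.

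miRNAs with 5 CPM or more in at least 3 of the 6 libraries were tested with limma 3.58.1 (trend) on log2(CPM + 1), 2-sided, with Benjamini-Hochberg adjustment. Differences are on that scale, which understates the change of scarce miRNAs. edgeR 4.0.16 (quasi-likelihood, 82 calls) and DESeq2 1.42.0 (R 4.3.3) were run on recovered reads. Tests were checked on simulated data. Counting intervals are exact at 95% and cover counting error only. Named miRNAs are, among called ones whose groups did not overlap, the 15 largest increases, the 15 largest decreases and those at or under 3 reads in each library of 1 strain; their other arms; the 10 most abundant; in each list with at least 2 tested members the most abundant and up to 4 called ones by size of change; and the 3 lowest interaction p-values. Any further one was named after its values were seen, also where it stands only as a member of a called hairpin, a naive call or a marker. The members and lists were chosen with earlier results of these data known. Alternatives changed the pseudocount, filter, scaling, variance trend, libraries in the fit, tool and replicate block, or left out 1 library. Host genes are from GENCODE M21 and positions from RefSeq, both GRCm38. No source used here gives the naive animals' ages.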

Additional observations from a re-analysis of the deposited data

How the results depend on the processing

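Of the 99 miRNAs called, 15 kept their call under every alternative and 0 changed direction; of 1958 pairs of a call and an alternative, 1390 kept the call and 568 lost it. The number of calls was 15 (3 higher, 12 lower) with 14 libraries in the fit and 27 (8 and 19) with 12, where the spread is taken from more libraries. Without 1 library it ran from 38 to 84, with 15 to 34 higher and 23 to 50 lower; the lowest count came without CAST/Ei injured 2. Lower calls fell to 39 with totals that leave out the 3 most abundant miRNAs, and to 42 with edgeR when C57BL/6 injured 1 was also left out, an alternative chosen after seeing the data. Naive calls were 12, and 21 without C57BL/6 naive 4 and 5. Replicate numbers did not pair the samples: same-numbered libraries had correlations of 0.0204, −0.168 and 0.00777 in their deviations, and a replicate block gave 92 calls (34 higher, 58 lower). Differences near 0 of uncalled miRNAs changed sign; the cause was not tested. With equal totals and with totals without the 3 most abundant miRNAs they became 0.00668 and 0.0341 for miR-3065-5p, 0.0679 and 0.0954 for miR-29b-3p, 0.00996 and 0.0374 for miR-183-5p, 0.0315 and 0.0590 for miR-16-5p, 0.0222 and 0.0496 for miR-181a-5p, and 0.0180 and 0.0454 for miR-379-5p. With median-of-ratios factors they were 0.0461 for miR-29b-3p, 0.00966 for miR-16-5p and 0.000347 for miR-181a-5p. With edgeR they were 0.0658 for miR-29b-3p, 0.00593 for miR-183-5p, 0.0130 for miR-16-5p, 0.0177 for miR-181a-5p and 0.0109 for miR-379-5p, and with DESeq2 0.0516 for miR-29b-3p and 0.00351 for miR-181a-5p. With edgeR without C57BL/6 injured 1 they were 0.0674 for miR-467d-3p, 0.0978 for miR-29b-3p, 0.152 for miR-16-5p, 0.0191 for miR-181a-5p and 0.0200 for miR-379-5p. Without 1 library the differences ran from −0.420 to 0.00157 for miR-467d-3p, −0.0257 to 0.546 for miR-669f-3p, −0.170 to 0.0895 for miR-3065-5p, −0.0752 to 0.0584 for miR-29b-3p, −0.0504 to 0.126 for miR-125b-5p, −0.0699 to 0.345 for miR-204-5p, −0.0432 to 0.105 for miR-126a-3p, −0.0438 to 0.0724 for miR-21a-5p and −0.129 to 0.0842 for miR-16-5p. Depth limited scarce miRNAs, since 1 read was worth 0.0674 to 0.161 CPM, and with 3 libraries a strain, smaller differences could be missed.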

Other observations

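Without C57BL/6 naive 4 and 5, the naive comparison called 5 miRNAs that were not called in injured ganglia, and C57BL/6 naive 4 and 5 held very different levels of some of them. miR-200b-3p, of the epithelial miR-200 family, had 10.7, 5.35, 4.31, 372 and 58.1 CPM in C57BL/6 naive libraries 1 to 5 and 42.5, 43.7 and 29.9 CPM in the CAST/Ei naive libraries. In injured ganglia it had 17.3, 5.13 and 9.83 CPM against 14.2, 10.3 and 17.4 CPM. miR-200a-3p, from the same cluster, had 5.75, 11.7, 8.61, 576 and 115 CPM against 53.6, 35.1 and 37.1 CPM in naive ganglia. C57BL/6 naive 4 was the highest library for both. The other 3 were miR-376b-5p (naive difference 1.47, injured 0.29 ± 0.25), miR-709 (−1.91, injured 0.39 ± 0.34) and miR-6240 (−1.85, injured 1.55 ± 1.11).

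miR-6240 stood at 8.56, 7.80 and 5.19 CPM in the C57BL/6 injured libraries and at 6.21, 251 and 6.13 CPM in the CAST/Ei injured libraries, where only CAST/Ei library 2 was high. The lymphocyte miRNA miR-150-5p varied widely among C57BL/6 naive libraries, at 417, 1658, 170.3, 2713 and 2382 CPM, against 179.9, 82.0 and 96.6 CPM in CAST/Ei naive libraries. miR-218-5p, a miRNA of motor neurons, stood at 5001, 5846, 3986, 260520.0 and 81351 CPM in the C57BL/6 naive libraries, with library 4 far above the rest, and at 16420.0, 4085 and 4911 CPM in the C57BL/6 injured libraries, with library 1 far above the others. These miRNAs were named after their values were seen.

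The scarce arms of the near-absent miRNAs, which did not reach the level tested, had low read numbers in both strains. miR-1188-3p had 24 reads in C57BL/6 and 8 in CAST/Ei injured libraries, miR-3061-3p 87 and 28, miR-7688-3p 14 and 2, and miR-467c-3p 57 and 49. Of these, miR-467c-3p was nearly level between the strains while miR-467c-5p had 1007 reads against 3.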
